A study of Mus musculus with 20 samples.

Results

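The comparison covers mouse bone-marrow-derived dendritic cells given a lipoprotein against the same kind of cells left immature, that is, without stimulus. It holds 8 of the 20 small RNA libraries of the series, chosen by their titles: 6 with a lipoprotein (oxLDL, eLDL or LDL, pooled) and 2 immature. Each treatment has 1 wild-type library (C57BL/6) and 1 library from miR-155 knockout mice (B6.Cg-Mir155tm1.1Rsky/J). All mice were 8 to 12 weeks old. All cultures were grown from flushed marrow in medium with 10% fetal calf serum and GM-CSF hybridoma supernatant, so the immature cells had been exposed to serum as well. The names oxLDL and eLDL are not spelled out in the labels, and the dose and duration of the lipoproteins were not stated for these cells. No condition has a replicate, and nothing says whether the libraries came from separate mice or cultures. The effect of a lipoprotein was therefore tested with genotype as a block, against a spread that also holds the differences among the 3 lipoproteins and between the genotypes, and p-values measure only the spread between these libraries.

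A miRNA is cut from a hairpin precursor, which can give a product from its 5 prime arm (5p) and one from its 3 prime arm (3p), and it recognises target mRNAs mainly through its seed, bases 2 to 8. miRNAs with the same seed can share targets, and miRNAs from neighbouring hairpins are often cut from 1 transcript. Low-density lipoprotein carries cholesterol in blood, and its modified forms enter phagocytes through scavenger receptors. In myeloid cells miR-155 is made from the transcript of its host gene after stimulation through Toll-like receptors and represses inhibitors of inflammatory signalling such as Socs1 and Inpp5d. The knockout lacks it, so a change in miR-155 itself can be measured only in the wild type.

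The results turn on miR-155-5p, on the 5p arms of 3 neighbouring hairpins (Mir99b, Mirlet7e and Mir125a) and on the let-7 family. They are shown here 5 prime to 3 prime as RefSeq gives them for GRCm38.p6, with the seed in capitals.
miR-155-5p: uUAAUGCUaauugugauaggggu
miR-99b-5p: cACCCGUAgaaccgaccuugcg
miR-99a-5p: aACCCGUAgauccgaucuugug
miR-125a-5p: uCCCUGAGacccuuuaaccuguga
miR-125b-5p: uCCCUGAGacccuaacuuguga
let-7e-5p: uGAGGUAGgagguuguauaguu
let-7f-5p: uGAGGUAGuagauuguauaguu
let-7g-5p: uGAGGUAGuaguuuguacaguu
let-7b-5p: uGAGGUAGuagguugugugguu
miR-99a-5p and miR-125b-5p are shown because they carry the seeds of miR-99b-5p and miR-125a-5p but come from other hairpins. The miR-155 hairpin lies at chr16:84714140-84714204 (GRCm38, plus strand) in an exon of the long non-coding gene Mir155hg. The neighbouring hairpins lie on the plus strand of chromosome 17 within the protein-coding gene Spaca6: Mir99b at chr17:17830188-17830257, for which the cluster is named here, and Mirlet7e at chr17:17830352-17830444 in an intron, and Mir125a at chr17:17830812-17830879 in an annotated exon.

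The 8 libraries held 10.3 to 15.2 M reads, of which 5.07 to 8.86 M (47.9% to 61.9%) matched a miRNA arm. Levels are given as miRNA counts scaled to 1e6 miRNA reads (CPM). A count of 3, the upper limit that a count of 0 allows, was 0.338 to 0.592 CPM, and covers counting error only. The 327 miRNAs tested had at least 5 CPM in at least 2 of the 8 libraries. The most abundant, miR-21a-5p, took a mean of 24.9% of miRNA reads. The blood-cell miRNA miR-142a-5p was present throughout, at 21020 and 19500 CPM in the immature libraries and 13810 to 23190 CPM with lipoproteins, as was the myeloid miR-223-3p at 2651 to 3608 CPM. In a principal component analysis of the 8 libraries, 49.97% of the variance lay along a first axis that set the genotypes apart. A second axis, with 14.9%, had the immature wild-type library at 6.97, the immature knockout library at 1.90 and the lipoprotein libraries from -4.31 to 1.28.

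Few miRNAs were called with lipoproteins in dendritic cells. Of 327 tested, 2 passed an adjusted p under 0.05 (0.612%) in edgeR's quasi-likelihood test with Benjamini-Hochberg adjustment: miR-155-5p was higher with lipoprotein (0.306% of those tested) and the shared product miR-3473b/miR-3473e was lower (0.306%). At an unadjusted p under 0.05, which 16.4 would pass by chance with no change, there were 43 (13.1%), 26 higher (7.95%) and 17 lower (5.20%). The median log2 change over all tested was 0.02, and the median size of the change, regardless of sign, was 0.19. Scaling to total miRNA reads moved the median change from 0.02 to -0.12, and the split at an unadjusted p under 0.05 from 26 higher and 17 lower to 14 higher and 42 lower. Upper-quartile scaling moved the median to 0.09 and that split to 39 higher and 4 lower. In CPM, 8 miRNAs (2.45%) were above both immature libraries in all 6 lipoprotein libraries and 32 (9.79%) were below both. Against the immature library of their own genotype, 13 (3.98%) were higher in all 6 and 64 (19.6%) were lower in all 6. CPM scales to total miRNA reads, under which the median change was -0.12, so these counts lean towards lower.

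**Figure D1:**
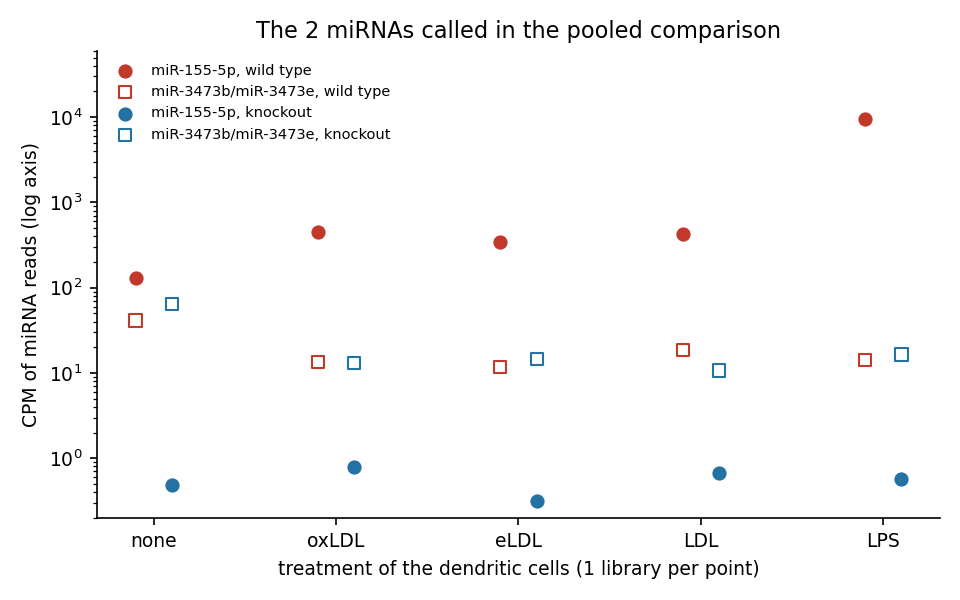
Level of the 2 called miRNAs in each of the 10 dendritic cell libraries (CPM of miRNA reads, log axis, 1 library per point), by treatment on the horizontal axis and genotype by colour. miR-155-5p in the wild type is at 129 CPM without stimulus, between 341 and 447 CPM with lipoproteins and at 9589 CPM with LPS, and stays under 1 CPM in the knockout, while miR-3473b/miR-3473e is highest in the 2 immature libraries.

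**Figure D2:**
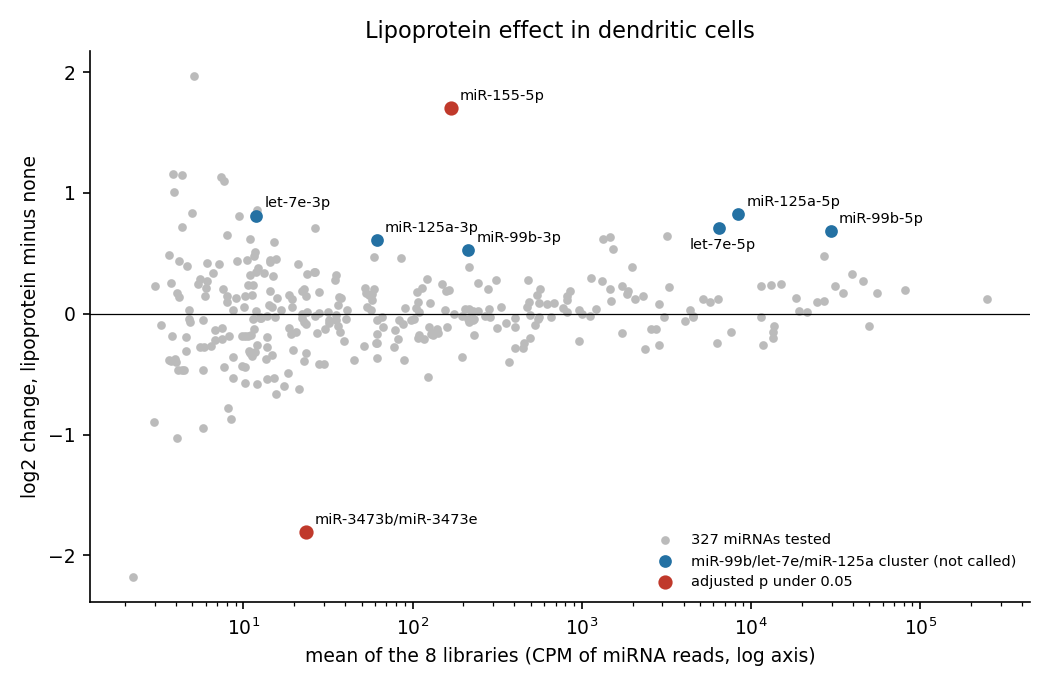
log2 change, lipoprotein minus none, of the 327 miRNAs tested (vertical axis) against their mean level over the 8 libraries (CPM, log axis). Red points pass an adjusted p under 0.05 and blue points are the 6 arms of the Mir99b cluster, which lie between 0.52 and 0.83 across the range of levels.

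In the wild type, miR-155-5p stood at 129 CPM (892 reads) in immature cells, 447 CPM with oxLDL, 341 CPM with eLDL and 431 CPM with LDL. All 3 lipoprotein libraries lay above the immature one. In the knockout, which checks the labels, it had 4 reads in the immature library and 7, 2 and 4 reads with oxLDL, eLDL and LDL. The fitted change of miR-155-5p over both genotypes was 1.70 ± 0.24 (log2 ± SE, adjusted p = 0.00157, edgeR), and it rests on the wild type. Without the immature wild-type library it was 0.47 and not called (adjusted p = 0.92). It was 1.81 in the wild type alone and not called there, and it was not called in fits of the 10 dendritic cell libraries (1.82, adjusted p = 0.34) or of all 20 libraries (1.77, adjusted p = 0.36). The other arm, miR-155-3p, was too rare to test: it had 9 reads in the immature wild-type library, 0 with oxLDL, 8 with eLDL and 4 with LDL. For comparison, LPS, a bacterial ligand of Toll-like receptor 4, gave 9589 CPM of miR-155-5p in the wild type.

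The product called lower is uncertain in origin. miR-3473b (chr10:41670739-41670793, plus strand) and miR-3473e (chr5:31667231-31667340, minus strand) begin with the same bases, and the reads counted for them were mostly a tag of 18 nt, the shortest length deposited, which ends where the mature sequences part.
miR-3473b: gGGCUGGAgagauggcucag
miR-3473e: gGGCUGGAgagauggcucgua
tag: gggctggagagatggctc
This tag made up 77.7% to 98.0% of the reads of miR-3473b/miR-3473e in the 10 dendritic cell libraries, and it also occurs in 500 annotated transcripts of 419 genes. Counting all its reads, miR-3473b/miR-3473e stood at 41.2 CPM in the wild-type and 64.7 CPM in the knockout immature library. With oxLDL, eLDL and LDL it was 13.3, 11.8 and 18.5 CPM in the wild type and 13.2, 14.6 and 10.7 CPM in the knockout. The 6 lipoprotein libraries (13.7 ± 2.72 CPM, SD, n = 6) all lay below both immature ones. The change in miR-3473b/miR-3473e was -1.80 ± 0.23 (log2 ± SE, adjusted p = 8.0e-04, edgeR). Without the immature knockout library it was -1.36 and not called (adjusted p = 0.15), and in a fit of all 20 libraries it was -1.84 and not called (adjusted p = 0.072). The LPS libraries, at 14.1 and 16.4 CPM, lay within the range of the lipoprotein ones.

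All 6 arms of the Mir99b cluster stood higher with lipoprotein, but none passed the adjusted threshold (0 of 6, with 0.612% called over all miRNAs). At an unadjusted p under 0.05, 6 of 6 were higher, against 7.95% of all tested. Their median log2 change was 0.70, against 0.02 over all miRNAs. It was 0.89 in the wild type and 0.55 in the knockout. The 6 arms summed to 32470 and 32580 CPM in the immature libraries and to between 41620 and 58160 CPM in the lipoprotein libraries, so the groups did not overlap. These sums are mostly miR-99b-5p, so their lack of overlap largely repeats that of 1 miRNA. Of single miRNAs, a measure unlike a sum, 2.45% lay above both immature libraries in all 6. Against the immature library of the genotype, 4 of the 6 arms were higher in all 6 libraries (3.98% of all tested). The members were grouped with earlier results of these data known, and these counts describe the cluster without testing it.

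miR-99b-5p, the most abundant product of the cluster, stood at 22700 CPM in immature wild-type cells and at 27160, 40080 and 39160 CPM with oxLDL, eLDL and LDL. In the knockout it stood at 21000 CPM in immature cells and at 25750, 31080 and 29310 CPM. Every lipoprotein library was above both immature ones, the oxLDL libraries by least. The change in miR-99b-5p was 0.68 ± 0.15 (log2 ± SE, adjusted p = 0.0549, edgeR).

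miR-125a-5p, which shares its seed with miR-125b-5p, stood at 5703 and 5715 CPM in the wild-type and knockout immature libraries. With oxLDL, eLDL and LDL it stood at 10070, 11790 and 9335 CPM in the wild type and at 8333, 6149 and 10020 CPM in the knockout. Again all 6 lay above both immature libraries, the knockout eLDL library only narrowly. The change in miR-125a-5p was 0.83 ± 0.18 (log2 ± SE, adjusted p = 0.0549, edgeR).

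let-7e-5p, a member of the let-7 family, was less even. It stood at 3927 CPM in immature wild-type cells and at 9781, 5927 and 6883 CPM with oxLDL, eLDL and LDL, and in the knockout at 5549 CPM in immature cells and at 7268, 5340 and 6994 CPM. The knockout eLDL library lay below the immature knockout library. The change in let-7e-5p was 0.71 ± 0.26 (log2 ± SE, adjusted p = 0.31). The 3p arms are the rarer products. miR-99b-3p ran from 154 CPM in the immature knockout to 288 CPM with eLDL in the wild type, and changed by 0.52 ± 0.14 (adjusted p = 0.12). miR-125a-3p ran from 42.9 CPM in the immature knockout to 83.5 CPM with LDL in the wild type, and changed by 0.61 ± 0.16 (adjusted p = 0.0979). let-7e-3p was 7.68 and 8.39 CPM in the immature libraries and 9.37 to 18.1 CPM with lipoproteins, and changed by 0.81 ± 0.28 (adjusted p = 0.28). DESeq2 in place of edgeR called 4 of these arms: miR-99b-5p, miR-99b-3p, miR-125a-5p and miR-125a-3p. The call of miR-99b-5p also appeared without the wild-type oxLDL library (0.74), and that of miR-125a-5p without the knockout eLDL library (0.90). Most alternatives did not call these arms. miR-99b-5p was called in 9 alternatives and not in 17, and miR-125a-5p in 5 and not in 21. miR-99b-3p was called in 4 and not in 22, and miR-125a-3p in 2 and not in 24.

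**Figure D3:**
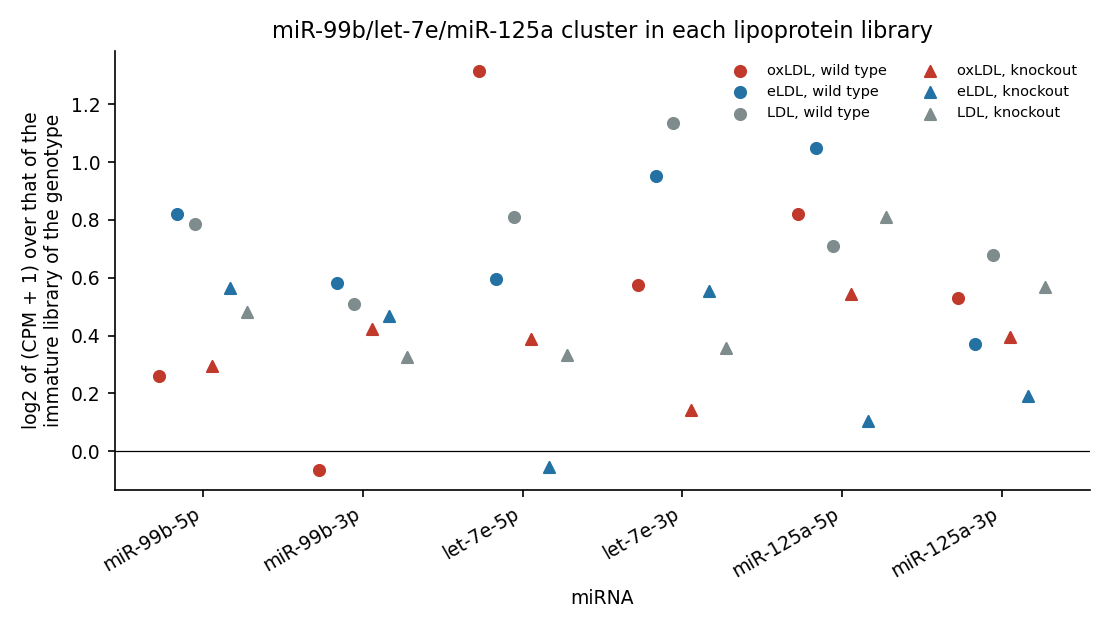
log2 ratio of CPM + 1 in each of the 6 lipoprotein libraries to that of the immature library of the same genotype (vertical axis), for the 6 arms of the Mir99b cluster. Colour gives the lipoprotein and shape the genotype. Of the 36 points, 34 lie above 0, and those below are miR-99b-3p with oxLDL in the wild type and let-7e-5p with eLDL in the knockout.

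The same seeds from other hairpins stood closer to the immature level. miR-99a-5p differed by 0.39 ± 0.16 (log2 ± SE, adjusted p = 0.33) and the much rarer miR-100-5p by 0.15 ± 0.32 (adjusted p = 0.92), both with the seed of miR-99b-5p. miR-125b-5p differed by 0.27 ± 0.11 (adjusted p = 0.31) and miR-351-5p by -0.10 ± 0.13 (adjusted p = 0.82), both with the seed of miR-125a-5p. The other 8 let-7 members tested lay between 0.03 and 0.25. The difference between the cluster and these miRNAs was not tested. Over the 7 arms of the related cluster of miR-99a, let-7c and miR-125b, the median log2 change was 0.19, with 0 called (0.612% called over all miRNAs).

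The broader lists held few calls. Of 16 miRNAs known to be induced in inflammation, 11 were tested and 1 was called higher, miR-155-5p (0.306% called higher over all miRNAs). Their median log2 change was 0.23. miR-146a-5p, which restrains Toll-like receptor signalling through Traf6 and Irak1, stood at 10220 and 11620 CPM in immature cells and 9637 to 12800 CPM with lipoproteins (0.23 ± 0.14, adjusted p = 0.48). miR-147-3p, also induced by such signals, stood at 2.32 and 3.47 CPM in immature cells and 2.03 to 5.88 CPM with lipoproteins (0.49 ± 0.54, adjusted p = 0.79). miR-21a-3p stood at 2410 and 2361 CPM in immature cells and 1589 to 4684 CPM with lipoproteins (0.65 ± 0.32, adjusted p = 0.47), with the wild-type oxLDL library lowest. Of 12 miRNAs reported to follow oxidised LDL in myeloid cells, 12 were tested, 1 was called higher (miR-155-5p again, with the same 0.306% over all miRNAs) and the median log2 change was 0.11. That count and median are for the 3 lipoproteins pooled. Taken singly, the list's median was 0.03 with oxLDL, 0.16 with eLDL and 0.16 with LDL (-0.02, 0.004 and 0.03 over all miRNAs). This list shares miR-125a-5p with the cluster.

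Of 23 miRNAs linked to lipid handling, 18 were tested and 0 were called, with a median log2 change of -0.08 (0.612% called and a median of 0.02 over all miRNAs). At an unadjusted p under 0.05, 0 of these 18 were higher (7.95% of all miRNAs) and 1 was lower (5.20%). Of the 18, 14 had a negative change (156 of 327 over all miRNAs). In CPM, 10 were lower in all 6 libraries than in the immature library of the genotype, against 64 (19.6%) over all miRNAs. CPM scales to total miRNA reads, under which the median change over all miRNAs was -0.12, so these counts lean towards lower. DESeq2 called 9 over all miRNAs. The 1 lower at that unadjusted p was miR-148a-3p, which targets the LDL receptor mRNA, at 17160 and 11480 CPM in immature cells and 8856 to 13690 CPM with lipoproteins (-0.25 ± 0.11, adjusted p = 0.34). miR-33-5p, which is cut from an intron of the cholesterol regulator Srebf2 and represses the cholesterol exporter Abca1, stood at 19.4 and 18.8 CPM in immature cells. With oxLDL, eLDL and LDL it was 4.45, 14.8 and 14.9 CPM in the wild type and 11.2, 13.9 and 13.6 CPM in the knockout. All 6 lay below both immature libraries, the wild-type oxLDL library by most, and the change in miR-33-5p was -0.54 ± 0.35 (adjusted p = 0.54). Of 18 miRNAs of myeloid differentiation, 17 were tested and 0 were called (0.612% over all miRNAs, a share at which a count of 0 says nothing about the list), with a median log2 change of 0.01.

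Other miRNAs were near the threshold. miR-92a-3p, of the miR-17~92 cluster, stood at 24530 and 20610 CPM in the wild-type and knockout immature libraries and at 26880 to 30610 CPM with lipoproteins, above both in all 6 (0.48 ± 0.13, adjusted p = 0.0999, and called by DESeq2). The other 14 tested arms of that cluster and its paralogues were not called either. miR-92a-3p is also on a list of 10 miRNAs reported in serum or carried by lipoproteins. Of these, 9 were tested and 0 were called (0.612% over all miRNAs), with a median log2 change of 0.12 (0.02 over all). At an unadjusted p under 0.05 (edgeR), 2 of the 9 were higher (7.95% of all miRNAs) and 1 was lower (5.20%). Carriage by the added lipoproteins was not tested. miR-15b-5p stood at 555 and 423 CPM in immature cells and at 295 to 385 CPM with lipoproteins, below both in all 6 (-0.40 ± 0.10, adjusted p = 0.0979). All 5 tested miRNAs with its seed had a negative change, against 156 of 327 over all miRNAs, among them miR-16-5p at -0.20 ± 0.12. None of the 5 was called, and those other than miR-15b-5p had an adjusted p of 0.49 to 0.72 (edgeR). In bulk RNA, fewer cells of a type and less of a miRNA per cell cannot be told apart. Among markers of other cells, the red-cell miRNA miR-451a was 6.23 and 5.15 CPM in the immature libraries and 0 to 3.04 CPM with lipoproteins, below both in all 6 (-2.18 ± 0.80, adjusted p = 0.30), while miR-3107-5p/miR-486-5p, also of that list, differed by 0.23. miR-144, the remaining red-cell miRNA on that list, was too rare to test on either arm. The summed erythroid level was 1504 and 1783 CPM against 1417 to 1996 CPM. Epithelial markers summed to 179 and 261 CPM against 165 to 284 CPM, endothelial and megakaryocyte markers to 7.91 and 18.4 CPM against 4.30 to 8.09 CPM, and the 4 muscle markers to 0 CPM against 0 to 1.35 CPM, with miR-133a-3p and miR-133b-3p at 0 in all 8 libraries. The part of such cells in these results was not tested.

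Whether the knockout changed the response was tested as the difference between the genotypes' lipoprotein effects. It called 0 of 327 (0%) in edgeR and 0 in DESeq2, with 14 (4.28%) at an unadjusted p under 0.05. For miR-155-5p the difference, knockout minus wild type, was -1.31 ± 0.83 (adjusted p = 0.84), on the 2 to 7 reads per knockout library. It was -0.34 ± 0.35 (adjusted p = 0.84) for miR-125a-5p and -0.17 ± 0.29 (adjusted p = 0.88) for miR-99b-5p. Each genotype had 1 immature library, so this test has low power, and a p that misses the threshold does not show that the responses were alike.

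Pooling could hide differences among the 3 lipoproteins, and a joint test of oxLDL, eLDL and LDL, which does not use the immature level, called 2 of 327 (0.612%), with 25 (7.65%) at an unadjusted p under 0.05. Both were let-7 family members, miRNAs that rise as cells differentiate and repress growth genes. let-7g-5p stood at 20160, 15030 and 10900 CPM with oxLDL, LDL and eLDL in the wild type and at 17730, 16600 and 11430 CPM in the knockout. It was higher with oxLDL than with eLDL by 0.85 on the log2 scale (joint adjusted p = 0.0218, edgeR). let-7b-5p stood at 6458, 4322 and 3447 CPM in the wild type and at 4539, 3984 and 3104 CPM in the knockout, a difference between oxLDL and eLDL of 0.82 (joint adjusted p = 0.0218). The other let-7 members were not called: let-7a-5p, let-7c-5p, let-7d-5p and let-7f-5p had an adjusted p of 0.0649, let-7e-5p of 0.0989, let-7i-5p of 0.32 and miR-98-5p of 0.57.

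In all 9 let-7 members the CPM fell in the order oxLDL, LDL, eLDL in both genotypes. That order in both genotypes was found in 19 of the 327 miRNAs tested (5.81%), a description chosen after the values were seen. let-7 members differ by single bases, so a sequencing error can move a read from one to another, and their changes are not independent. Against the immature cells, the family's median log2 change was 0.55 with oxLDL, -0.24 with eLDL and 0.03 with LDL. let-7f-5p, the most abundant member, stood at 122800, 66450 and 63960 CPM with oxLDL, LDL and eLDL against 66100 CPM in immature wild-type cells, and at 89410, 81630 and 67730 CPM against 93150 CPM in the knockout. Only the wild-type oxLDL library lay well above its immature library. The 2 calls depend on the processing and on single libraries. Under each of the other 3 scalings 0 were called. Without the wild-type or the knockout eLDL library 0 were called, without the wild-type LDL library 5, without the knockout LDL library 14, without the knockout oxLDL library 23, and without either immature library 10. let-7b-5p was not called without the wild-type oxLDL library (adjusted p = 0.21).

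**Figure D4:**
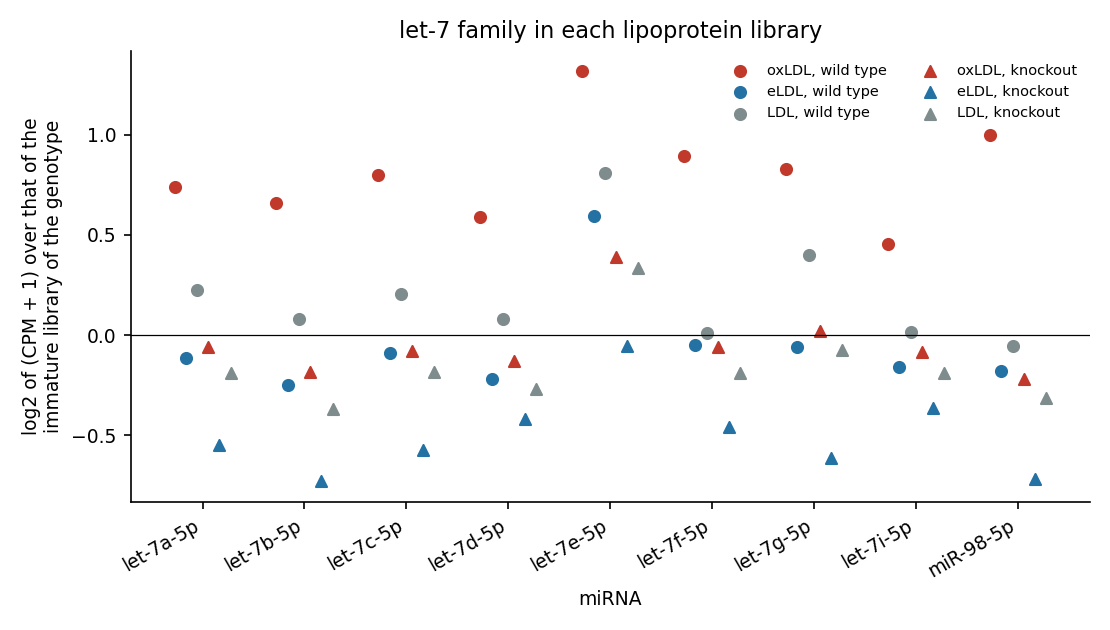
log2 ratio of CPM + 1 in each lipoprotein library to that of the immature library of its genotype (vertical axis) for the 9 let-7 family members tested. Colour gives the lipoprotein and shape the genotype. Within each genotype the oxLDL point lies highest and the eLDL point lowest for every member. For let-7f-5p the wild-type oxLDL library stands apart from the other 5.

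Each lipoprotein was also set against none, with the same immature libraries in all 3 comparisons. oxLDL called 3 (0.917%), eLDL 7 (2.14%) and LDL 6 (1.83%). miR-155-5p was 1.92 ± 0.25 with oxLDL, 1.39 ± 0.24 with eLDL and 1.76 ± 0.25 with LDL (log2 ± SE, edgeR), each called. As the knockout had 2 to 7 reads of it, each value rests on 1 wild-type lipoprotein library against the 1 immature wild-type library. Those calls of miR-155-5p therefore do not measure variation between replicates. miR-3473b/miR-3473e was -1.80, -1.88 and -1.72, each called. With oxLDL the third call was let-7e-5p (1.03 ± 0.18, adjusted p = 3.3e-04). With eLDL miR-99b-5p (0.80) and miR-99b-3p (0.64) rose, together with the rare miR-31-5p (2.47) and with miR-99a-5p (0.56), and miR-574-3p (-0.73) fell. With LDL miR-99b-5p (0.76), let-7e-5p (0.68), miR-125a-5p (0.90) and miR-125a-3p (0.76) rose. No arm of the cluster passed the joint test of a difference among the 3.

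Macrophages grown with M-CSF from the same 2 genotypes, given treatments of the same names, were used to ask whether the response differs by cell type. In a fit of the 16 libraries without LPS, the lipoprotein effect differed between the cell types for 28 of 376 miRNAs (7.45%), with 11 higher in macrophages (2.93%) and 17 lower (4.52%). The split was 28 higher and 12 lower under total-read scaling and 26 higher and 15 lower under a filter of 50 CPM. For the cluster 5 of 6 arms were called, all in 1 direction. miR-99b-5p changed by 0.64 ± 0.14 in dendritic cells and by -0.93 ± 0.13 in macrophages, a difference of -1.57 ± 0.19 (log2 ± SE, adjusted p = 1.0e-04, edgeR). miR-125a-5p changed by 0.80 and -1.01 (difference -1.81 ± 0.27, adjusted p = 5.6e-04), let-7e-5p by 0.68 and -1.36 (difference -2.05 ± 0.34, adjusted p = 9.6e-04) and miR-99b-3p by 0.49 and -1.52 (difference -2.01 ± 0.25, adjusted p = 1.0e-04). These 4 differences were called under every one of the 23 alternatives run for them. miR-125a-3p differed by -1.67 ± 0.44 (adjusted p = 0.0286). It was not called without any 1 of 5 libraries: the 2 immature dendritic cell libraries, the 2 unstimulated macrophage libraries and the knockout dendritic cell library with oxLDL. The macrophage levels were lower to begin with: miR-99b-5p was 8692 CPM without stimulus and 4030 to 5370 CPM with lipoproteins in the wild type, and 2214 CPM and 1377 to 1561 CPM in the knockout.

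No difference in response between the cell types was called for miR-155-5p, with 1.74 ± 0.39 in dendritic cells and 1.62 ± 0.35 in macrophages (difference -0.12 ± 0.47, adjusted p = 0.92). That difference changed sign with single libraries: it was -1.45 without the unstimulated wild-type macrophage library and 1.26 without the immature wild-type dendritic cell library, and kept its sign in 18 of 23 alternatives. Both fitted values pool the wild type with the knockout, which lacks miR-155, so their closeness does not describe the wild-type responses. The level of miR-155-5p in wild-type macrophages was 5348 CPM without stimulus and 26720 to 33140 CPM with lipoproteins. In wild-type dendritic cells it was 129 CPM and 341 to 447 CPM. In knockout macrophages the few reads gave 3.93 CPM without stimulus and 4.78 to 5.89 CPM with lipoproteins. A difference between the cell types in the wild type alone was not tested. miR-210-3p, a target of hypoxia-inducible factor, was 0.06 in dendritic cells and -1.39 in macrophages (difference -1.45 ± 0.20, adjusted p = 3.1e-04), and miR-21a-3p was 0.61 and -1.06 (difference -1.67 ± 0.28, adjusted p = 0.00104). The unstimulated wild-type macrophage library touches these values: without it 18 miRNAs were called in place of 28. Without the immature dendritic cell library of the wild type 16 were called, and without that of the knockout 13.

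**Figure D5:**
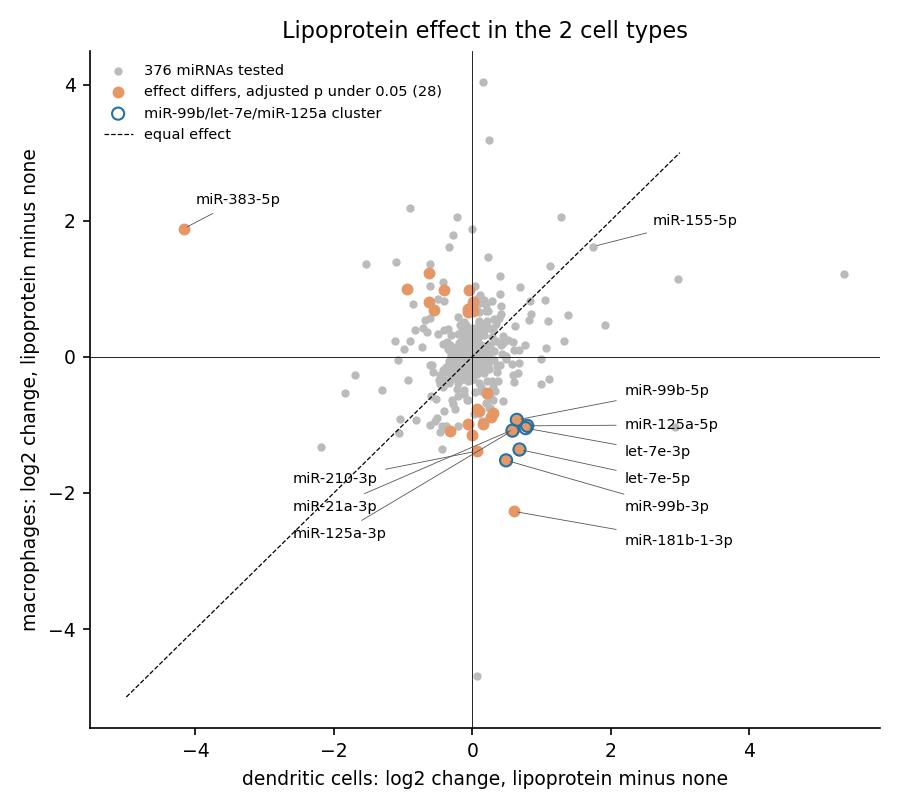
log2 change, lipoprotein minus none, in macrophages (vertical axis) against dendritic cells (horizontal axis) for 376 miRNAs. Orange points mark the 28 whose effect differs at an adjusted p under 0.05, blue rings the 6 arms of the Mir99b cluster, which lie to the right of 0 and below 0, and the dashed line equal effects.

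More miRNAs were called with LPS than with lipoproteins: against the same immature libraries it called 88 of 330 (26.7%), with a median size of change of 0.42 against 0.19. The fits were unlike: the LPS values are from the 10 dendritic cell libraries, with 2 LPS libraries, and 0.19 is from 8 libraries, with 6 pooled. Single lipoproteins, with 2 libraries each, called 3 (oxLDL), 7 (eLDL) and 6 (LDL) of 327. The lipoprotein level was tested against the LPS level directly, without the immature libraries that both share as controls, in a fit of the 10 dendritic cell libraries. It differed for 92 of 330 miRNAs (27.9%), 53 higher with lipoprotein (16.1%) and 39 lower (11.8%). The split was 38 higher and 56 lower under upper-quartile scaling and 97 higher and 20 lower under total-read scaling. Without the wild-type LPS library 48 were called. miR-147-3p stood at 283 and 266 CPM with LPS and 2.03 to 5.88 CPM with lipoproteins (-6.46 ± 0.24, adjusted p = 9.5e-09, edgeR). miR-155-5p was lower with lipoprotein by a fitted -4.41 ± 0.58 (adjusted p = 6.5e-04), a value that rests on the wild-type LPS library and was 0.09 without it. miR-210-3p stood at 1038 and 1229 CPM with LPS and 399 to 625 CPM with lipoproteins (-1.53 ± 0.12, adjusted p = 9.9e-07). miR-92b-3p (-3.11 ± 0.37) and miR-129-5p (-2.93 ± 0.33), both rare, were lower with lipoprotein than with LPS as well. miR-6539-5p had 0 reads in both LPS libraries and 352 over the 6 lipoprotein libraries (8.43 CPM pooled). That is at least 54.5-fold higher than with LPS, against a floor of 3 counts over the LPS group. It passed the filter of 5 CPM only through libraries without LPS, and it was not called between lipoprotein and none. miR-223-3p was higher with lipoprotein than with LPS (0.88 ± 0.10, adjusted p = 2.3e-05, edgeR), at 2651 to 3568 CPM against 1364 and 1288 CPM. Against none, the lipoprotein change was 0.49 ± 0.54 for miR-147-3p, 0.10 ± 0.13 for miR-210-3p, 1.005 ± 0.58 for miR-92b-3p and -0.03 ± 0.11 for miR-223-3p. None of these changes was called.

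The Mir99b cluster was mixed in this comparison. miR-99b-5p stood at 24770 and 25480 CPM with LPS, below each of the 6 lipoprotein libraries in CPM, with a fitted difference after TMM scaling of 0.06 ± 0.13 (adjusted p = 0.79). miR-125a-5p stood at 10840 and 12200 CPM with LPS and was lower with lipoprotein (-0.60 ± 0.17, adjusted p = 0.0180). It was not called without either LPS library (-0.79 without the wild-type one, -0.42 without the knockout one) nor under total-read scaling (-0.33). miR-125a-3p stood at 108 and 114 CPM with LPS, above all 6 lipoprotein libraries, and was lower with lipoprotein by 1.05 ± 0.14 on the log2 scale (adjusted p = 6.8e-05). let-7e-5p stood at 9738 and 9716 CPM with LPS and was lower with lipoprotein without passing the test (-0.74 ± 0.25, adjusted p = 0.0559). let-7e-3p was higher (0.89 ± 0.31, adjusted p = 0.0487), but was not called in 11 of 16 alternatives, among them the one without the wild-type LPS library (0.47).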

How the data were processed

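The authors' deposited files list distinct sequences of 18 to 45 nt with their read counts, as raw counts without miRNA names. Per the labels' protocols, Trizol was used for total RNA and an Illumina TruSeq kit for the libraries. The submitters' processing notes name CASAVA 1.8.2 without a role, and adapter trimming is not given in the sources used here. Tags of 18 to 26 nt had to match 1 of the 1178 annotated miRNA hairpins (GENCODE M21, GRCm38) exactly. RNAfold 2.7.2 set the arm, and a tag had to start within 2 nt of the arm's commonest 5 prime end. Reads of tags in several miRNAs were divided equally, and products with the same leading tags or RefSeq name were merged. This detected 1230 miRNAs over the 20 libraries. Of the 327 tested, 277 matched a RefSeq mature sequence by at least 12 nt. Other sequences were not analysed here.

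Counts were scaled by TMM and tested with edgeR 4.0.16 (R 4.3.3) by robust quasi-likelihood F tests, with genotype and lipoprotein as terms (5 residual degrees of freedom) and Benjamini-Hochberg adjustment at 0.05 over all miRNAs tested. Standard errors follow from the log2 change and its F statistic. With 1 library per condition, each library is assumed to vary like the others. Ratios for single libraries use CPM with a pseudocount of 1. DESeq2 1.42.0, other scalings and filters, and leaving out each library were alternatives. In simulated data for the pooled comparison, run on 327 miRNAs, the test recovered 24% of changes of log2 0.5, 78.5% of log2 1 and 98% of log2 2, with a mean of 2.4 false calls. In the real data 10 miRNAs had a fitted log2 change over 1 in size, and 2 of them were called. The simulated rates do not show how many changes of that size these data hold. The comparison, its members and the lists were chosen with earlier results of these data known. The text names both miR-155 arms, up to 12 miRNAs called each way with a mean of at least 50 counts and 1 direction in all 6 lipoprotein libraries, list members, the 10 most abundant, and up to 6 with the largest called difference in each further comparison. miR-15b-5p, the miRNAs that share a seed, those called for single lipoproteins, and miR-210-3p and miR-21a-3p between cell types were chosen after their values were seen.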

Additional observations from a re-analysis of the deposited data

Results flagged for a closer look

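Each flagged result is given as a value, with no explanation. Of the let-7 members, let-7f-5p stood apart in 1 of the 6 lipoprotein libraries: its log2 ratio to the immature library of the genotype was 0.89 in the wild-type oxLDL library, against -0.46 to 0.01 in the other 5. Chance alone flags about 1 in 20 groups.

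The lipoprotein effect differed between the cell types, by a test of the difference itself, for 6 miRNAs named by the rule of largest difference (macrophages minus dendritic cells, log2). It differed by -2.05 for let-7e-5p and by -2.01 for miR-99b-3p, both called in every alternative run. It differed by 6.06 for miR-383-5p, a value that rests on 5 reads in the immature knockout dendritic cell library and 0 in the other 7 dendritic cell libraries, and that was 1.90 and not called without that library. It differed by -2.87 for miR-181b-1-3p, which had 138 reads in the unstimulated wild-type macrophage library and 20 to 26 reads in that genotype with lipoproteins; without that library it was -1.90 and not called, and it was not called without either immature dendritic cell library. It differed by 1.93 for miR-181c-3p, which was 0.98 without the immature knockout dendritic cell library and 1.48 without the unstimulated wild-type macrophage library, not called in either case, and not called without the knockout macrophage eLDL library (2.01). It differed by 1.86 for miR-672-5p, which had 3 to 19 reads in the 8 dendritic cell libraries and was called in 13 of 22 alternatives.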

How the results depend on the processing

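The call count of the pooled lipoprotein effect was 2 as reported. It was 4 with upper-quartile scaling, 7 with no filter, 9 with the DESeq2 test, 0 in a fit of all 20 libraries, 1 with no genotype term, 7 for eLDL alone, 6 for LDL alone, 9 without both oxLDL libraries, 1 without both LDL libraries, 0 in the wild type alone and 1 in the knockout alone. Leaving out each library in turn gave 1 to 8. The difference by genotype stayed at 0 under the alternatives that could be fitted, while leaving out an immature library could not be fitted. Differences among the lipoproteins, 2 as reported, were 0 with DESeq2 size factors, with upper-quartile scaling, with total miRNA reads and with a filter of 50 CPM, 12 with no filter and 8 with the DESeq2 test, and 0 to 23 with each library left out. Leaving out 1 library gave 13 to 37 calls by cell type (28 as reported) and 48 to 106 against LPS (92 as reported). No miRNA called for the pooled effect changed direction under these alternatives. Beside DESeq2, miR-99b-5p was called under upper-quartile scaling (0.75), DESeq2 size factors (0.67) and no filter (0.65). It was called in 9 alternatives in all and not called in 17. No paired analysis was possible because every label gives 1 library per condition and no replicate number; the genotype block stands in its place. The causes of these shifts were not tested. With depths of 5.07 to 8.86 M miRNA reads, miRNAs of a few CPM rest on few reads.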

Other observations

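The ends of miR-21a-5p, the most abundant miRNA of these cells, were counted as well. Reads that reach past the annotated end carry C and then U where the hairpin gives the next bases, and some carry C or A in place of that U, which the hairpin does not encode. They are shown with the added bases in capitals.
annotated end: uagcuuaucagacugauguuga
encoded: uagcuuaucagacugauguugaCU
not encoded, CC: uagcuuaucagacugauguugaCC
not encoded, CA: uagcuuaucagacugauguugaCA
The CC form made up 2.26% of miR-21a-5p reads in the wild-type and 2.30% in the knockout immature library. With oxLDL, eLDL and LDL its share was 3.33%, 3.32% and 2.54% in the wild type and 2.83%, 3.05% and 3.07% in the knockout, above both immature libraries in all 6. With LPS it was 5.32% in the wild type and 4.28% in the knockout. Another form that is not encoded, with CA in place of CU, did not follow the same order: it made up 1.99% in the wild-type and 1.89% in the knockout immature library, 2.50%, 2.37% and 2.04% with oxLDL, eLDL and LDL in the wild type, 1.84%, 1.82% and 1.97% in the knockout, and 1.69% and 1.47% with LPS. The encoded CU form also stood above both immature libraries (11.7% and 11.4%) in all 6, at 12.3% to 13.7%, and at 15.2% and 13.6% with LPS. The ratio of the CC form to this encoded form of the same length was 0.193 and 0.202 in the immature libraries. It was 0.207 to 0.247 with lipoproteins and 0.350 and 0.314 with LPS. The level of miR-21a-5p itself differed by 0.12 ± 0.15 (log2 ± SE, adjusted p = 0.82, edgeR) between lipoprotein and none. These shares were looked at after other values of these libraries were known, and no test was run on them.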
